A study of Mus musculus with 4 samples.

Results

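The 7 genes described here move chloride and sodium across the intestinal epithelium, or belong to a family long linked to chloride secretion. They are the chloride channel gene Cftr, the anion exchanger genes Slc26a3 and Slc26a6, the sodium-proton exchanger genes Slc9a2 and Slc9a3, and the Clca4 genes Clca4a and Clca4b. They were taken by name from the 27998 genes of a single-cell count matrix. The matrix holds cells from small intestines of mice kept on a ketogenic diet (2 libraries) or on a control diet (2 libraries), prepared with the 10x 3′ v2 chemistry, which tags the 3′ end of each transcript with a unique molecular identifier (UMI). All cells come from dissociated whole intestine, and the authors' cell table assigns each to 1 of 7 types. The sources used here give neither strain, genotype, age, sex, diet composition and time on the diet nor the number of animals behind a library. A p-value here thus rests on the spread between 2 libraries a diet, pooled in part over all genes tested, and that spread may be technical.

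As background, the small intestine secretes chloride mainly from the crypt and absorbs sodium chloride mainly on the villus. In secretion, chloride enters the cell from the blood side through the sodium-potassium-chloride cotransporter encoded by Slc12a2 and leaves into the lumen through the Cftr channel, which opens after phosphorylation by cyclic nucleotide dependent kinases. In absorption, an apical sodium-proton exchanger works beside an apical chloride-bicarbonate exchanger, and the sodium pump on the blood side keeps the gradient that drives both. Slc26a3 (also called DRA) and Slc26a6 (also called PAT-1) are the chloride-bicarbonate exchangers of the brush border. Slc9a3 (NHE3) and Slc9a2 (NHE2) are its sodium-proton exchangers. Clca proteins were first described as calcium-activated chloride channels and are now regarded as secreted or shed proteins that can modulate such channels.

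In the GENCODE M21 annotation of mm10, all 7 are protein-coding. Cftr lies on chromosome 6 from 18170687 to 18322768 and Slc26a3 on chromosome 12 from 31390871 to 31473917, both on the forward strand. Slc26a6 lies on chromosome 9 from 108853283 to 108913049, Slc9a2 on chromosome 1 from 40680574 to 40769273 and Slc9a3 on chromosome 13 from 74121457 to 74169442, also on the forward strand. Clca4a (chromosome 3 from 144952480 to 144975045) and Clca4b (chromosome 3 from 144910921 to 144932529) are neighbours on the reverse strand. Their annotated transcripts are 95.6% identical over 2996 aligned bases, and 91.3% identical over the last 500 bases, where 3′ tags fall, with at most 37 identical bases in a row there. The sources used here do not say how reads that match both copies were counted, so the split of UMIs between Clca4a and Clca4b is uncertain.

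RefSeq start windows (build GRCm38.p6) were at hand for 5 of the 7 genes, and the 250 bases upstream of the start are shown for 3 of them. Clca4b is shown because it is the member called in stem cells, and Slc26a3 and Slc26a6 because their levels were both highest in the most mature enterocytes. Capitals mark matches on either strand to TATAAA (a form of the TATA box) and AGGTCA (the core site of nuclear receptors). Only exact matches were sought, so other forms are not marked. The stretch tatatata near the start in the Clca4b window is thus unmarked. No match to a further motif, CAAAGTCCA (bound by Hnf4 factors of the enterocyte), was found in these 3 windows. The windows are chr3:144932530-144932779 on the reverse strand for Clca4b, chr12:31437969-31438218 on the forward strand for Slc26a3 and chr9:108853793-108854042 on the forward strand for Slc26a6. Those of Slc26a3 and Slc26a6 lie within the GENCODE spans given above, so the RefSeq starts used here differ from the GENCODE gene starts.
Clca4b: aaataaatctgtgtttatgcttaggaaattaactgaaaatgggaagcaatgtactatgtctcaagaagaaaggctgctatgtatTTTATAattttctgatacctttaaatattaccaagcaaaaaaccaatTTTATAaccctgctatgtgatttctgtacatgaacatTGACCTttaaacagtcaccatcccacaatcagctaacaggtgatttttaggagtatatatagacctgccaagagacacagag
Slc26a3: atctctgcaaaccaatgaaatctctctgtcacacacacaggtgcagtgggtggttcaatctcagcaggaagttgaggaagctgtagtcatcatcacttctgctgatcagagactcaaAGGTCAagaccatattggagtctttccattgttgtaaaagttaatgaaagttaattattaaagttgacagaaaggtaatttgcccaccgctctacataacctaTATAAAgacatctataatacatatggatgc
Slc26a6: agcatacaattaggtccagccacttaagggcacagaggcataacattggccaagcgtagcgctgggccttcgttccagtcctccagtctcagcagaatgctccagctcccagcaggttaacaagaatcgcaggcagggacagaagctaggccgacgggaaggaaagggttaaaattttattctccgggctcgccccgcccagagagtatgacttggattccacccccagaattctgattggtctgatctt
The Slc26a3 window holds TATAAA 30 bases before the start on the forward strand, and AGGTCA at 133 bases before it. Clca4b holds TATAAA on the opposite strand at 119 and 166 bases before the start, and AGGTCA on the opposite strand at 82 bases. The Slc26a6 window holds none of the 3 motifs. Among all 32851 windows of this length, TATAAA is in 12.4%, AGGTCA in 14.0% and CAAAGTCCA in 0.384%. A match is a description of the letters and does not show that a factor binds there.

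The ketogenic libraries held 3194 and 3414 cells with 27316428 and 30292457 UMIs, and the control libraries 3549 and 4896 cells with 29186729 and 34106639 UMIs. Pairs of libraries shared between 10 and 26 cell barcodes. The marker list of each absorptive stage (stem, transit amplifying, enterocyte) was highest in the type of that name. In the class called enterocytes, the 10 enterocyte markers summed to 12047 and 6733 CPM (counts scaled to a common library size) in the ketogenic libraries and to 4707 and 4651 CPM in the control libraries, and the 7 stem markers to 727 and 822 CPM against 477 and 753 CPM. The enterocyte class thus carried genes of the stem list as well. That list includes Slc12a2, the cotransporter of chloride secretion, whose enterocyte level is given further on. Immune markers summed to at most 1.82 CPM and stromal markers to at most 1.06 CPM in stem cells, transit amplifying cells and enterocytes, and erythroid markers were at 0 there. The Paneth class (35 to 56 cells per library) carried no member at a level that could be tested.

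The members were detected at very different depths. Over 15053 cells, Cftr had 7884 UMIs, Slc26a3 had 4202, Clca4b had 3954, Slc26a6 had 3760 and Slc9a2 had 1456. Clca4a had 52 UMIs in 6 cells, and Slc9a3 had 3 UMIs in 3 cells. In what follows, levels are CPM after TMM scaling within a cell type, and changes are log2 fold changes of ketogenic over control from edgeR's quasi-likelihood test on UMI counts summed per library and cell type, with Benjamini-Hochberg adjustment over all genes of that fit and a threshold of 0.05. Where the libraries of the diets do not overlap, this is given as description. The share of all genes without overlap was not worked out. With 2 libraries a diet such a gap is common without any diet effect, so it adds nothing to a value that did not pass. UMIs of a 3′ assay do not grow with transcript length, so levels of different genes are set side by side as UMI rates. These still depend on how well each 3′ end is captured.

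**Figure D1:**
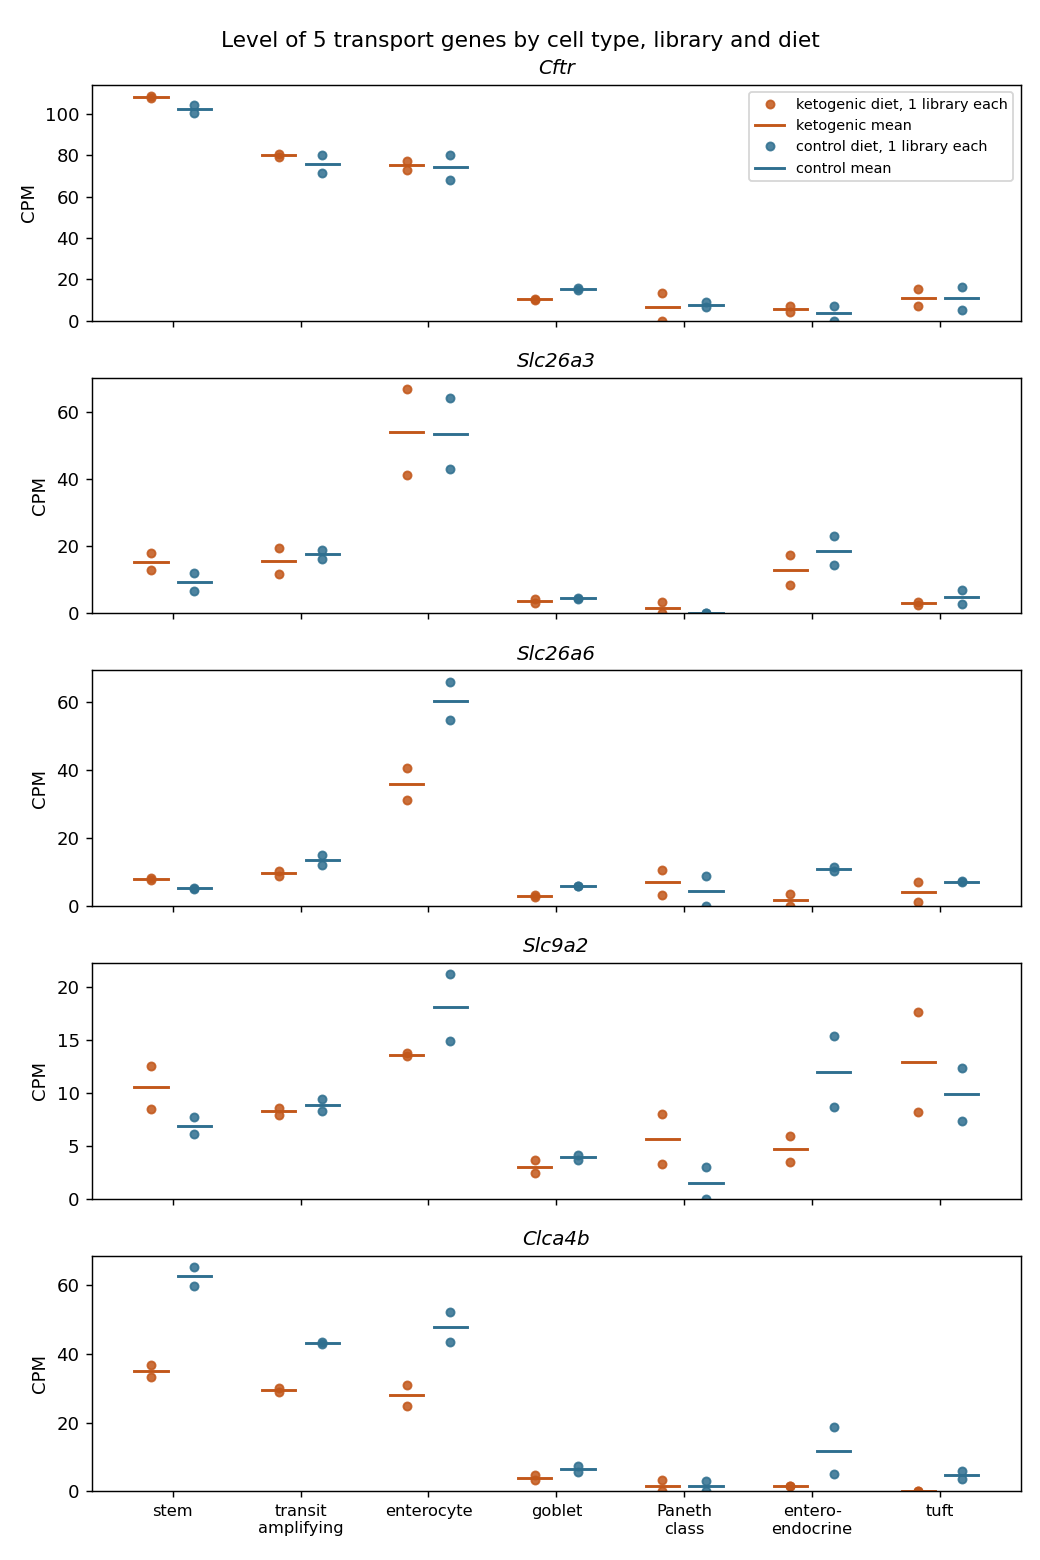
Level in CPM (linear axis) of 5 members in the 7 cell types, with 1 point per library and a line at the mean of the 2 libraries of a diet, ketogenic left and control right. Cftr and Clca4b are high in stem cells, transit amplifying cells and enterocytes, while Slc26a3 and Slc26a6 are highest in enterocytes.

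Cftr, the apical chloride channel of crypt secretion, had its highest level in stem cells, and its difference between the diets passed the test in no cell type. In stem cells it stood at 109 and 108 CPM in the ketogenic libraries and at 104 and 101 CPM in the control libraries. In transit amplifying cells the levels were 80.6 and 79.2 CPM against 71.1 and 79.9 CPM, and in enterocytes 73.0 and 77.3 CPM against 68.0 and 80.2 CPM. Stem cells were thus above the other two types in all 4 libraries, whereas transit amplifying cells and enterocytes overlapped. Goblet cells, the mucus-secreting type, had far less, at 10.3 and 10.2 CPM in ketogenic and 15.7 and 15.0 CPM in control libraries, in the range of tuft cells (7.05 and 15.2 CPM against 5.29 and 16.1 CPM). Enteroendocrine cells and the Paneth class had at most 5 Cftr UMIs in a library.

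The log2 fold change of Cftr was 0.08 ± 0.13 in stem cells (SE, adjusted p = 0.977), 0.08 ± 0.11 in transit amplifying cells (adjusted p = 0.881) and 0.02 ± 0.12 in enterocytes (adjusted p = 0.971). The 95% interval in enterocytes ran from -0.26 to 0.30. In goblet cells it was -0.58 ± 0.20 (adjusted p = 0.323), and there both ketogenic libraries lay below both control libraries. The goblet value stayed between -0.62 and -0.46 under the alternatives run. Enterocyte markers summed to 2825 and 2381 CPM in ketogenic and to 1927 and 1956 CPM in control goblet cells, and their part in that value was not tested. At least 1 Cftr UMI was seen in 40.3% to 49.0% of the enterocytes of a library, in 44.3% to 52.2% of stem cells and in 7.77% to 9.78% of goblet cells. Median depth per cell was 7342 to 9629 UMIs in enterocytes and 6896 to 9268 UMIs in goblet cells. Thinning every cell to 3000 UMIs left out the shallower cells, 290 and 230 enterocytes, 54 and 68 stem cells and 36 and 32 goblet cells in the ketogenic libraries, and 297 and 539, 63 and 114, and 53 and 89 such cells in the control libraries. The shares were then 19.7% to 24.3% in enterocytes, 22.8% to 29.7% in stem cells and 2.73% to 4.40% in goblet cells. The goblet share stood well under that of the absorptive lineage at a like depth.

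Slc26a3, the anion exchanger whose loss causes congenital chloride diarrhoea in humans, was an enterocyte gene here, and no difference between the diets passed the test. Enterocytes had 66.9 and 41.1 CPM in the ketogenic libraries and 64.1 and 43.0 CPM in the control libraries. The libraries of a diet thus lay further apart than the diets did, and the log2 fold change was 0.01 ± 0.26 (SE, adjusted p = 0.996, 95% interval from -0.61 to 0.63). Transit amplifying cells had 19.5 and 11.8 CPM against 18.9 and 16.3 CPM, a log2 fold change of -0.18 ± 0.23 (adjusted p = 0.870). Stem cells had 17.9 and 12.9 CPM in ketogenic libraries and 6.64 and 11.99 CPM in control libraries, with no overlap between diets but their gap of 0.58 ± 0.31 on the log2 scale did not pass the test (adjusted p = 0.817).

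Beside that stem cell value, the enterocyte markers summed to 1744 and 1412 CPM in ketogenic stem cells and to 805 and 927 CPM in control stem cells. Their part in the Slc26a3 value was not tested. Enteroendocrine cells, where Slc26a3 was the only member with enough counts for the test, had 8.50 and 17.2 CPM against 23.1 and 14.4 CPM, from 9 or 10 UMIs in each library. The log2 fold change there was -0.60 ± 0.53 (adjusted p = 1.00). Goblet cells had 3.11 to 4.63 CPM over the 4 libraries and tuft cells 2.35 to 7.05 CPM. A Slc26a3 UMI was seen in 21.3% to 34.5% of enterocytes, in 4.17% to 10.6% of stem cells and in 2.30% to 3.26% of goblet cells.

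Slc26a6, the brush border exchanger that also carries oxalate, was likewise an enterocyte gene, and its level was lower in both ketogenic libraries than in both control libraries. Enterocytes had 40.4 and 31.2 CPM in ketogenic libraries against 66.0 and 54.6 CPM in control libraries. The log2 fold change was -0.75 ± 0.16 (SE, 95% interval from -1.13 to -0.37), and it did not pass edgeR's test across all genes (adjusted p = 0.174). DESeq2 on the same sums called it (log2 fold change -0.77 ± 0.19, adjusted p = 0.00683), in a fit that called 1.53% of the genes tested. The edgeR fit called 0.18% of the genes tested in enterocytes, none of them a member. Beside these values, the enterocyte markers summed to 12047 and 6733 CPM in ketogenic and to 4707 and 4651 CPM in control enterocytes, and their part in the Slc26a6 value was not tested.

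In all cells together Slc26a6 had 24.3 and 19.9 CPM in ketogenic libraries against 44.7 and 35.1 CPM in control libraries, a log2 fold change of -0.85 ± 0.15 (adjusted p = 0.136 with edgeR and 0.000465 with DESeq2). Enterocytes made up 54.7% and 52.7% of the cells of the ketogenic libraries and 60.7% and 56.6% of those of the control libraries. Values over all cells, those of Clca4b further on included, depend on this mix too. Without the library control 2 the enterocyte value was -0.90, in a fit with 1 control library that called many more genes in all. Leaving out any other library kept edgeR's adjusted p over the threshold. Transit amplifying cells showed 8.80 and 10.4 CPM in ketogenic against 15.0 and 12.03 CPM in control libraries (log2 fold change -0.47 ± 0.22, adjusted p = 0.561). The diets did not overlap there either.

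Slc26a6 was low in stem, goblet and tuft cells. In stem cells it had 7.75 and 8.18 CPM in ketogenic and 5.11 and 5.23 CPM in control libraries (log2 fold change 0.63 ± 0.36, adjusted p = 0.840), from 10 to 28 UMIs in a library. A Slc26a6 UMI was seen in 2.24% to 5.22% of stem cells, 1.85% to 4.13% of goblet cells and 0.926% to 5.17% of tuft cells, against 19.3% to 30.6% of enterocytes. Free RNA in the droplets was not measured, and its part in these low shares was not tested. In goblet cells the values were 2.63 and 3.17 CPM against 5.91 and 5.81 CPM (log2 fold change -1.003 ± 0.35, adjusted p = 0.325).

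Slc9a2, an apical sodium-proton exchanger, had the fewest UMIs in total of the members that could be tested in every major type. In stem cells, though, Slc26a6 had fewer, 68 against 87. Enterocytes had 13.4 and 13.7 CPM in ketogenic libraries and 21.2 and 14.9 CPM in control libraries. Control 1 stood apart, and the gap between diets, -0.41 ± 0.18 on the log2 scale, failed the test (SE, adjusted p = 0.529). Without control 2 the Slc9a2 value was -0.66 on the log2 scale. That fit has 1 control library and called many more genes in all, so no call is drawn from it.

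In stem cells Slc9a2 had 12.5 and 8.47 CPM in ketogenic and 6.13 and 7.68 CPM in control libraries (log2 fold change 0.49 ± 0.34, adjusted p = 0.894), from 12 to 29 UMIs in a library. Transit amplifying cells had 8.52 and 7.95 CPM against 9.44 and 8.26 CPM (log2 fold change -0.10 ± 0.24, adjusted p = 0.942). Tuft cells had 17.6 and 8.21 CPM in ketogenic and 12.3 and 7.34 CPM in control libraries, from 5 to 15 UMIs. A Slc9a2 UMI was seen in 9.49% to 15.6% of enterocytes, in 4.10% to 11.2% of tuft cells and in 1.89% to 3.48% of goblet cells. With so few UMIs the part of free RNA in the tuft cell values was likewise not tested.

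Slc9a3, the main sodium absorbing exchanger of the small intestine, was all but absent from the counts. The ketogenic libraries held 1 UMI each, in a goblet cell and in a stem cell, and the control libraries 1 UMI, in an enterocyte, and 0. Among 8474 enterocytes 1 had a UMI. No fold change is given. Of the 3 coding transcripts of Slc9a3 in GENCODE M21, those of 2490 and 2589 bases end with the coding sequence, and 1 of 5118 bases runs on past it. The sources used here do not name the annotation behind the counts, and the part of the annotated 3′ end in the low count was not tested.

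With all 4 libraries and the settings given above, Clca4b in stem cells was the 1 call that edgeR's test made among the members. Without the low-count filter edgeR also called Clca4b and Slc26a6 in enterocytes and in all cells. DESeq2 called the same pair there, and no member in stem cells. In all cells these fits called 407 and 211 genes in all, against 22 for edgeR with the filter. In stem cells Clca4b fell to 33.4 and 36.8 CPM in ketogenic libraries, against 65.4 and 59.9 CPM in control libraries. Both ketogenic libraries lay at about the same low level, and the log2 fold change was -0.81 ± 0.16 (SE, 95% interval from -1.13 to -0.49, edgeR's adjusted p = 0.0100). It was the 1 called member of the 5 tested in stem cells, in a fit that called 0.336% of all genes tested. The call held without any 1 of the 4 libraries, with log2 fold changes from -0.90 to -0.75.

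The stem cell call of Clca4b was lost with DESeq2 (log2 fold change -0.82, adjusted p = 0.326) and among cells with under 10% mitochondrial UMIs (-0.86, adjusted p = 0.0955), at about the same size. The stem class had 254 and 460 cells with median mitochondrial shares of 16.2% and 8.52% in the ketogenic libraries, and 312 and 557 cells with 11.5% and 8.26% in the control libraries. Clca4b UMIs numbered 56 and 126 against 128 and 195 in these cells. Enterocyte markers summed to 1744 and 1412 CPM in the ketogenic and to 805 and 927 CPM in the control stem cells, and their part in the Clca4b value was not tested.

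The other absorptive stages showed the same direction for Clca4b without passing edgeR's test. Transit amplifying cells had 30.2 and 28.8 CPM in ketogenic against 43.1 and 43.6 CPM in control libraries, a log2 fold change of -0.56 ± 0.13 (adjusted p = 0.0852). Enterocytes had 30.9 and 25.0 CPM against 43.5 and 52.4 CPM, a log2 fold change of -0.78 ± 0.15 (edgeR's adjusted p = 0.135, DESeq2's 0.00443). All cells together had 23.3 and 22.6 CPM against 38.5 and 44.6 CPM, a log2 fold change of -0.86 ± 0.11 (edgeR's adjusted p = 0.0538, DESeq2's 3.11e-06). The diets did not overlap in these fits, and the sums over all cells contain the cells of the other fits. In transit amplifying cells edgeR called 0.715% of all genes and no member. Over all cells edgeR called 0.172% of all genes and none of the 6 members tested, and DESeq2 called 1.79% of all genes and 2 members, Slc26a6 and Clca4b.

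By cell type, Clca4b followed the absorptive lineage from the stem cell on. In control libraries stem cells (65.4 and 59.9 CPM) lay above enterocytes (43.5 and 52.4 CPM) and transit amplifying cells (43.1 and 43.6 CPM). In ketogenic libraries stem cells (33.4 and 36.8 CPM) lay above enterocytes (30.9 and 25.0 CPM) and transit amplifying cells (30.2 and 28.8 CPM), which overlapped. Goblet cells had 3.35 and 4.76 CPM in ketogenic and 5.66 and 7.39 CPM in control libraries (log2 fold change -0.67 ± 0.34, adjusted p = 0.594). In goblet cells edgeR called 0.521% of all genes and none of the 5 members tested. A Clca4b UMI was seen in 18.9% to 27.6% of stem cells, 15.4% to 24.4% of enterocytes and 2.31% to 4.42% of goblet cells.

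A few enterocytes carried a large number of Clca4b UMIs. Enterocytes with at least 5 of them numbered 6 and 6 in the ketogenic libraries, against 12 and 13 in the control libraries, and the highest single cell held 64. Their median maturity percentile among the enterocytes of their library, by the score described further on, was 99.8 and 74.0 in the ketogenic and 99.0 and 99.3 in the control libraries. Leaving these cells out, enterocyte Clca4b stood at 22.6 and 23.1 CPM in ketogenic and at 37.3 and 45.3 CPM in control libraries, without TMM scaling. The gap between the diets was thus there without these cells.

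Clca4a was found in 6 enterocytes, 4 of which held at least 5 Clca4b UMIs. Its 52 UMIs were spread unevenly, with 22 UMIs in 2 cells of ketogenic 1, none in ketogenic 2, 27 UMIs in 3 cells of control 1 and 3 UMIs in 1 cell of control 2. All 6 lay at or above maturity percentile 97.9, and 5 of them also held Clca4b UMIs, between 2 and 64 per cell. The cell with the most, 20 Clca4a and 64 Clca4b UMIs, came from ketogenic 1 and held 936 UMIs of the apolipoprotein gene Apoa1. Mitochondrial genes made up 58.1% and 75.0% of the UMIs of 2 of the 6 cells. With reads from 6 cells no diet comparison is drawn. Stem, transit amplifying and goblet cells held Clca4b UMIs and no Clca4a UMI.

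**Figure D2:**
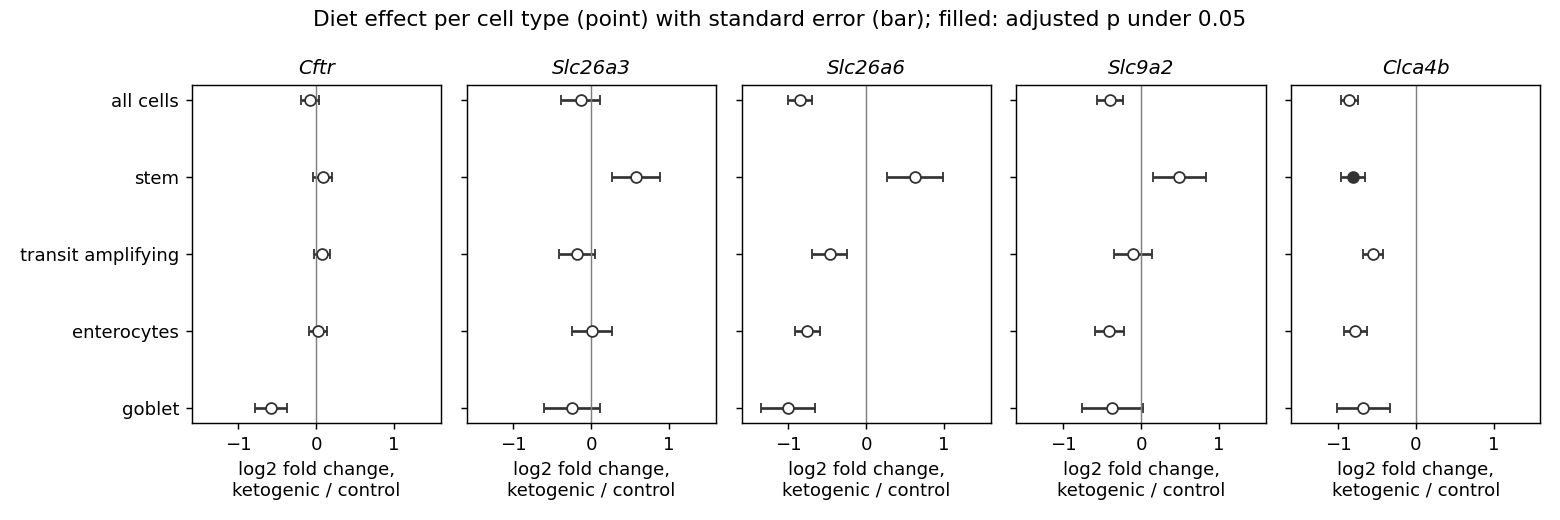
Log2 fold change of ketogenic over control (horizontal axis) with its standard error for 5 members in all cells and 4 cell types, from edgeR's quasi-likelihood test. The filled point, Clca4b in stem cells at -0.81, is the one past an adjusted p of 0.05, and Clca4b lies left of 0 in each of the 5 fits.

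The diet effects were compared between cell types directly. For Slc26a6 the enterocyte effect lay 1.43 log2 units under the stem cell effect (difference -1.43, adjusted p = 0.104). The stem cell side of that difference rests on 10 to 28 Slc26a6 UMIs in a library, where the part of free RNA was not tested. That for Slc9a2 was -0.86 (adjusted p = 0.607) and that for Slc26a3 was -0.61 (adjusted p = 0.722). Clca4b had a difference of -0.03 (adjusted p = 0.990) and Cftr one of -0.09 (adjusted p = 0.956). No member passed, in a fit that called 0.259% of all genes. Without control 2, the difference was -1.64 for Slc26a6 and -1.53 for Slc26a3. That fit leaves 1 control library, whose stem cells held 10 Slc26a6 and 13 Slc26a3 UMIs.

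Across all 7 types together, the test for any difference in the diet effect gave adjusted p-values of 0.275 for Slc26a6, 0.491 for Clca4b, 0.834 for Slc9a2, 0.966 for Slc26a3 and 0.989 for Cftr, and it called 0.883% of all genes. In enteroendocrine cells edgeR called 0.0582% of all genes, and in tuft cells 0.0144%, with no member among them. Cftr, the only member tested in tuft cells, had a log2 fold change of -0.0024 ± 0.59 there (adjusted p = 1.00).

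Along enterocyte maturity, Slc26a6, Slc26a3 and Slc9a2 were higher in the more mature cells of every library, Cftr was lower there and Clca4b had no common slope. Each library's enterocytes were ordered by a score, the mean of the enterocyte markers less that of the stem and transit amplifying markers without Slc12a2. They were split into a lower, a middle and an upper range of equal size, 582 to 924 cells each. This score was chosen after seeing the data, because the score planned first, from villus tip and villus base genes, put the brush border alkaline phosphatase gene Alpi highest in its lower range. By construction the new score orders Alpi, at 3.0 and 2.8 CPM in the lower range of the ketogenic libraries and 278 and 164 CPM in the upper. In control libraries Alpi was at 5.2 and 3.1 CPM in the lower range and at 202 and 234 CPM in the upper. These are ranges of a score and not cell types, and 13.7% to 17.8% of the enterocytes of a library lay within 0.1 SD of a boundary.

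Slc26a6 had the steepest slope. In the lower, middle and upper range it stood at 4.999, 19.5 and 94.7 CPM in ketogenic 1 and at 4.08, 12.8 and 75.0 CPM in ketogenic 2. In control 1 it stood at 6.93, 48.8 and 134 CPM, and in control 2 at 8.06, 20.8 and 127 CPM. The ketogenic libraries were below the control libraries in each of the 3 ranges.

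Slc26a3 was likewise higher in more mature cells, with 11.8, 45.3 and 140 CPM in the lower, middle and upper range of ketogenic 1 and 10.9, 22.3 and 89.0 CPM in those of ketogenic 2. In control 1 it stood at 11.5, 63.7 and 112 CPM and in control 2 at 11.3, 25.0 and 88.0 CPM. For Slc26a3 the diets overlapped in every range. Slc9a2 had a gentler slope, with 7.04 and 6.11 CPM in the lower and 20.1 and 22.5 CPM in the upper range of the ketogenic libraries, and 8.11 and 8.06 CPM in the lower and 30.6 and 23.5 CPM in the upper range of the control libraries.

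Cftr had the opposite slope, with 78.7 and 83.4 CPM in the lower and 51.7 and 68.3 CPM in the upper range of the ketogenic libraries. In the control libraries it stood at 86.9 and 94.4 CPM in the lower and at 53.9 and 65.4 CPM in the upper range. The slope of Cftr was shallow, and the upper range still held at least 51.7 CPM in every library. Clca4b had no common slope. It stood at 30.5, 18.0 and 40.3 CPM in ketogenic 1, at 31.3, 27.3 and 19.3 CPM in ketogenic 2, at 39.0, 32.9 and 57.3 CPM in control 1 and at 54.7, 39.8 and 60.3 CPM in control 2. In 3 of the 4 libraries Clca4b was thus lowest in the middle range, and the control libraries lay above the ketogenic ones in each range.

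As a mean over the 4 libraries, the log2 difference between the upper and the lower range was 4.17 for Slc26a6, 3.21 for Slc26a3, 1.71 for Slc9a2, 0.10 for Clca4b and -0.53 for Cftr. With the score planned first the signs for Slc26a6 (-2.46), Slc26a3 (-2.57), Slc9a2 (-1.37) and Cftr (0.28) were the opposite, and Clca4b had 1.04. By that score the stem marker Lgr5 was highest in the upper range, at 48.5 and 58.1 CPM in ketogenic and 43.6 and 59.0 CPM in control libraries, so it does not order the cells from immature to mature.

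**Figure D3:**
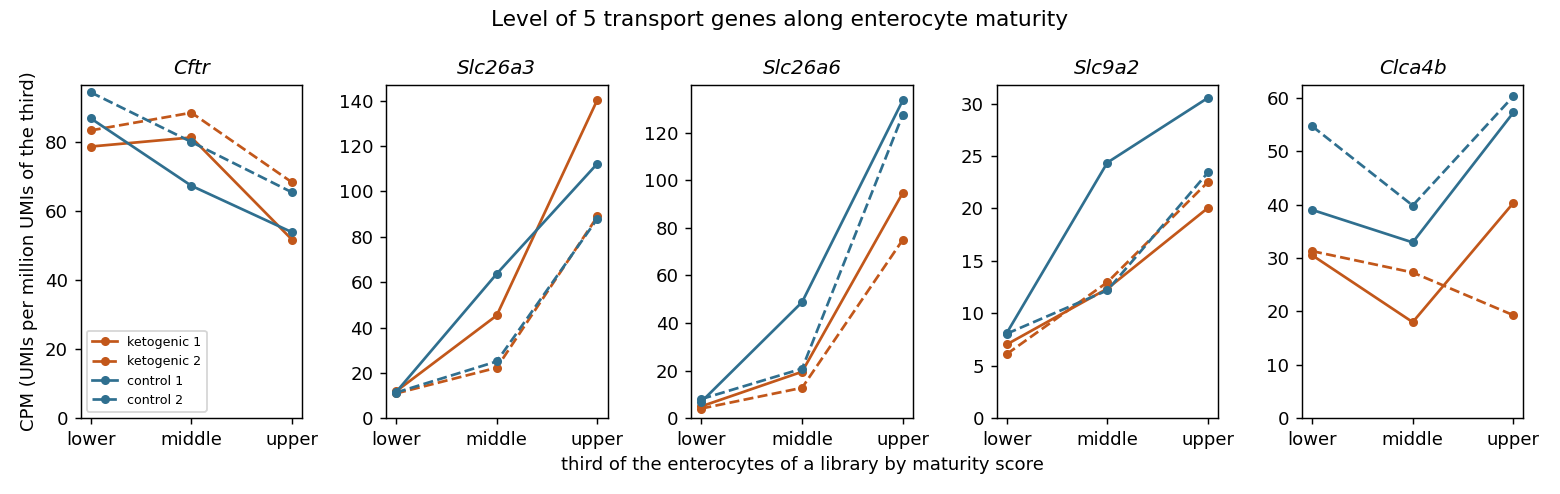
Level in CPM (linear axis) of 5 members in the lower, middle and upper range of the enterocytes of each library by the maturity score, with 1 line per library. Slc26a6 reaches 94.7 and 75.0 CPM in the upper range of the ketogenic libraries and 134 and 127 CPM in that of the control libraries.

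In each library Slc26a6 was seen in a larger share of the enterocytes with a Slc26a3 UMI than of those without. In enterocytes thinned to 3000 UMIs, Slc26a6 was seen in 23.9% and 27.2% of cells with a Slc26a3 UMI in the ketogenic libraries, against 8.52% and 7.65% of cells without one. In the control libraries the shares were 23.9% and 27.4% with Slc26a3 and 13.9% and 11.3% without. Both genes were higher in the more mature enterocytes, and the part of maturity in these shares was not tested. Slc26a3 was not seen more often in enterocytes with a Cftr UMI. In ketogenic enterocytes its shares were 15.0% and 9.71% with a Cftr UMI and 16.7% and 10.2% without. In control enterocytes they were 14.8% and 10.7% against 16.8% and 11.5%.

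Other genes of the same transport systems were taken from 6 lists. Atp1b1, the beta subunit of the sodium pump, had 561 and 591 CPM in ketogenic and 833 and 811 CPM in control enterocytes. The diets did not overlap, and the log2 fold change of -0.51 ± 0.10 was not called (SE, edgeR's adjusted p = 0.149).

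Fxyd3, a small regulator of the pump, rose in transit amplifying cells to 65.7 and 44.5 CPM in ketogenic libraries, against 27.1 and 30.9 CPM in control libraries (log2 fold change 0.91 ± 0.17, adjusted p = 0.0298). Enterocyte markers moved the same way there, with summed levels of 3570 and 2498 CPM in ketogenic and 1449 and 1539 CPM in control transit amplifying cells, and their part in the Fxyd3 value was not tested. In stem cells Fxyd3 had 79.3 and 57.2 CPM against 36.3 and 46.7 CPM (0.66 ± 0.17, adjusted p = 0.133). Of the list of other sodium transporters and pump genes, 7 of 14 were tested in each of these types, with Fxyd3 called in transit amplifying cells and none called in stem cells.

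Sgk1, a kinase that raises sodium transport after stimulation by glucocorticoids and mineralocorticoids, rose in the immature cells. Stem cells had 75.7 and 102 CPM in ketogenic libraries against 31.2 and 47.3 CPM in control libraries (log2 fold change 1.16 ± 0.17, adjusted p = 0.000858). Transit amplifying cells had 26.9 and 44.5 CPM against 9.44 and 18.3 CPM (1.34 ± 0.27, adjusted p = 0.0452). The diets did not overlap in either type. Enterocyte markers were also higher in both ketogenic libraries, at 1744 and 1412 CPM against 805 and 927 CPM in stem cells and at 3570 and 2498 CPM against 1449 and 1539 CPM in transit amplifying cells. Their part in the Sgk1 values was not tested. In enterocytes the Sgk1 levels were 29.1 and 35.7 CPM against 8.29 and 22.6 CPM and did not pass (1.07 ± 0.39, adjusted p = 0.436). Of the 23 genes of the signalling list, 17 were tested in stem cells and in transit amplifying cells, with 1 called in each, and 19 in enterocytes with none called. The medians were 0.04, 0.00 and 0.00 beside 0.00, 0.00 and 0.02 over all genes. The lowest p in enterocytes belonged to Prkg2, a cyclic GMP dependent kinase that acts on Cftr (20.8 and 20.8 CPM against 26.1 and 26.5 CPM, adjusted p = 0.386), and Adcy6, an adenylyl cyclase (42.8 and 38.7 CPM against 33.3 and 31.8 CPM, adjusted p = 0.415).

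**Figure D4:**
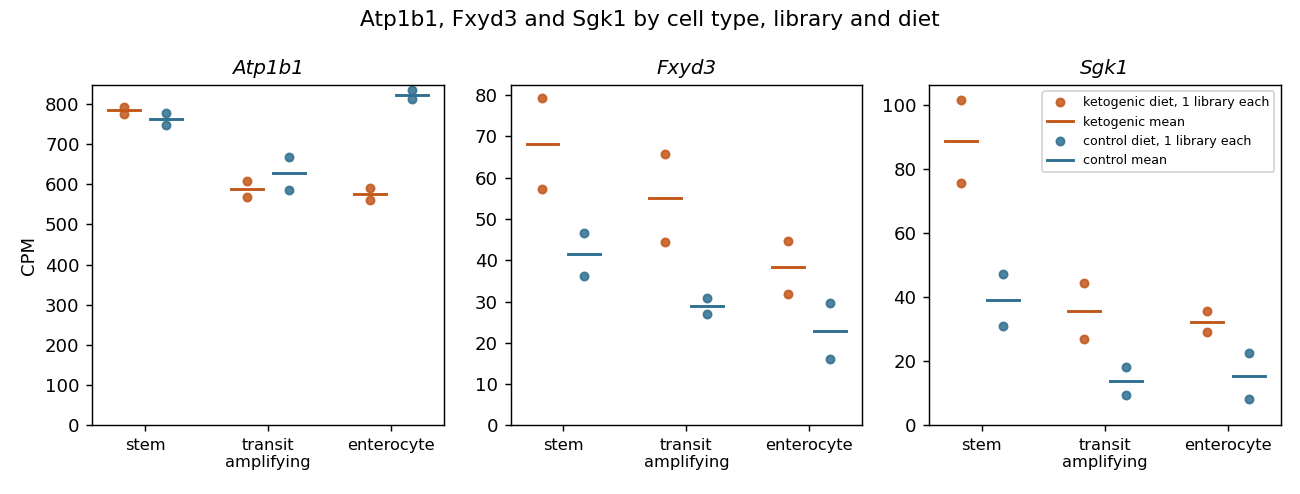
Level in CPM (linear axis) of the sodium pump gene Atp1b1, the pump regulator Fxyd3 and the kinase Sgk1 in 3 cell types, with 1 point per library and a line at the mean of the 2 libraries of a diet, ketogenic left and control right. Enterocyte Atp1b1 stands at 561 and 591 CPM in ketogenic and at 833 and 811 CPM in control libraries, and Sgk1 is higher in both ketogenic libraries in each of the 3 types.

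Genes of scaffold and binding proteins of the exchangers and Cftr leaned lower in enterocytes without a call. All 13 genes of this list were tested there, 10 of them with a negative log2 fold change, and the median was -0.26 beside 0.02 over all genes. Slc9a3r1, the scaffold that binds both Slc9a3 and Cftr, had 91.3 and 90.0 CPM in ketogenic libraries against 133 and 111 CPM in control libraries (-0.43 ± 0.12, adjusted p = 0.293). Ezr, which links such scaffolds to actin, had 77.2 and 73.2 CPM against 102 and 87.4 CPM (-0.33 ± 0.12, adjusted p = 0.416). Transit amplifying cells leaned the same way, with a negative value for 8 of 11 genes of the list tested and a median of -0.14. In stem cells 2 of 10 genes tested had a negative value, with a median of 0.05, and in goblet cells 3 of 10, with a median of 0.06. The share of all genes with a negative value was not worked out.

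The remaining lists had no called gene in any of the 8 fits. Chloride entry and potassium recycling on the blood side were tested for 5 of 6 genes in enterocytes, with a median of 0.15. Slc12a2, the cotransporter that feeds Cftr, had 335 and 346 CPM in ketogenic and 210 and 327 CPM in control enterocytes (0.34 ± 0.20, adjusted p = 0.600). Kcne3, a potassium channel subunit of secreting cells, had 233 and 295 CPM in ketogenic and 344 and 367 CPM in control stem cells (-0.42 ± 0.13, adjusted p = 0.289).

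Bicarbonate transporters and carbonic anhydrases were tested for 10 of 13 genes in enterocytes, with 5 above and 5 below 0. The carbonic anhydrase genes Car13 (9.7 and 12.5 CPM against 15.9 and 13.5 CPM, adjusted p = 0.511) and Car12 (15.9 and 16.2 CPM against 10.4 and 14.2 CPM, adjusted p = 0.530) had the lowest p there. Of the other chloride channels, Clca genes and anion exchangers, 12 of 18 were tested. Ano6, a lipid scramblase and ion channel, had 34.6 and 36.1 CPM in ketogenic and 56.2 and 48.4 CPM in control enterocytes (-0.56 ± 0.12, adjusted p = 0.171). The sulfate transporter gene Slc26a2 had 21.9 and 24.1 CPM against 27.0 and 25.7 CPM (adjusted p = 0.617).

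The genes most like each member were sought among 3058 genes by Pearson's r of log2 CPM over the 28 sums of cell type and library, which share libraries and cell types, so that r mainly reflects the cell type. Cftr was most like Cps1 (r = 0.93), Cdk6 (0.93) and Timm44 (0.91). Slc26a3 was most like Glod5 (0.88), Dld (0.86) and Idh3b (0.85), Slc26a6 like Ndufb4 (0.80), Ndufc1 (0.80) and Atp5l (0.79), and Slc9a2 like Me2 (0.87), Casp6 (0.83) and Prpsap1 (0.78). Clca4b was most like Otc (0.90), Bzw2 (0.90) and Cmbl (0.88). Among the members themselves r was 0.80 between Cftr and Clca4b and 0.79 between Slc26a6 and Slc9a2. Slc9a3 and Clca4a had too few UMIs for this comparison.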

How the data were processed

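The authors deposited raw UMI counts for each cell, and a cell table with library and cell type. The submitters' processing notes list Cell Ranger 2.1.0 and mm10. The sources used here do not describe cell filters, doublet handling or cell type assignment. The deposited types were used as they stand. Counts were summed per library and type, since cells are not replicates, and tested with edgeR 4.0.16 in R 4.3.3 (quasi-likelihood, TMM, filterByExpr by diet, Benjamini-Hochberg over all genes tested). Between-type differences were fitted with library as a block. The fits were tested on simulated counts first.

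The members, the lists and the rule for named genes (all members, called list genes and up to 2 further per list by lowest p, and the 3 most alike genes) were chosen with earlier results of these data known. 1 list gene is not reported here. Alternatives were DESeq2 1.42.0, RLE factors, no count filter, cells under 10% mitochondrial UMIs, thinned sums, leaving out the 6% of cells with the highest Scrublet scores (Scrublet itself called 0.0204% to 0.188% of cells, and its calls were not used), a fit with replicate number as block, and fits without 1 library. The chi-square of replicate libraries was 21.3 (ketogenic) and 28.3 (control) times its degrees of freedom, so they were not copies. With 2 libraries a diet, the exact permutation test cannot reach the threshold and was not used. Shares of cells carry counting error only. Figures were drawn in Python 3.11.15.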

Additional observations from a re-analysis of the deposited data

How the results depend on the processing

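The call of Clca4b in stem cells was lost with DESeq2 (0 of the 2 members that kept an adjusted p) and among cells with under 10% mitochondrial UMIs (0 members called). In all cells, where edgeR called 0 members, DESeq2 and the fit with no low-count filter called 2 each (Slc26a6 and Clca4b). The cells under 10% mitochondrial UMIs called 1 (Clca4b). Over all genes these fits called 211, 407 and 24, against 22 with edgeR's main settings. In enterocytes, where edgeR called 0, DESeq2 and no filter also called 2 each, the same genes. DESeq2 called 176 genes in all there, against 21 with edgeR's main settings. In transit amplifying cells, 1 member (Clca4b) was called with no filter and without the 6% highest doublet scores, against 0. For the difference between enterocytes and stem cells, no filter called 1 (Slc26a6), against 0. The main fits called 72 genes in all in transit amplifying cells and 30 for that difference. Counts over all genes varied widely among the alternatives, so these member calls are not read as results about the members.

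Leaving out 1 library at a time gave 0 to 2 members called in all cells, 1 in stem cells every time, 0 to 1 in transit amplifying cells, 0 to 3 in enterocytes and 0 to 2 for the difference between enterocytes and stem cells. In goblet, enteroendocrine and tuft cells, and for the difference among 7 types, 0 were called each time. Without control 2, edgeR called 760 genes in enterocytes, against 21 with all libraries. The sources used here do not say whether the replicate numbers pair libraries. Same-numbered libraries had correlations of their deviations between -0.04 and 0.08, which with 2 pairs cannot decide it. Median mitochondrial shares of enterocytes were 10.1% and 10.4% in the ketogenic and control libraries numbered 1. They were 8.60% and 8.58% in those numbered 2. Whether same-numbered libraries share a batch was not tested. With the replicate block, 2 members were called in all cells, 1 in stem cells and 1 in transit amplifying cells. Enterocytes then had 1 (Slc26a6) and goblet cells 0. In all cells the fit with the block called 69 genes in all, against 22 without it.

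Log2 fold changes near 0 turned sign. Slc26a3 in enterocytes was -0.0022 with DESeq2, -0.0028 with RLE factors, -0.0039 with no filter, -0.021 thinned and -0.0012 with the replicate block. Cftr was 0.014 in all cells at an equal mix of cell types, and in tuft cells 0.031 with DESeq2, 0.014 with no filter and 0.059 with the block. Among cells under 10% mitochondrial UMIs, Slc9a2 in transit amplifying cells was 0.090, Clca4a was 0.39 in all cells and 0.57 in enterocytes, and the enterocyte minus stem difference was 0.0098 for Cftr and 0.019 for Clca4b. Without 1 library, Cftr ran from -0.18 to 0.017 in all cells, -0.00049 to 0.17 in transit amplifying cells, -0.094 to 0.12 in enterocytes, -0.63 to 1.06 in tuft cells and -0.18 to 0.058 for the difference. Slc26a3 ran from -0.48 to 0.18 in all cells, -0.57 to 0.16 in transit amplifying cells and -0.39 to 0.32 in enterocytes. Clca4a, from 6 cells, ran from -6.96 to 2.08 in all cells, -6.89 to 2.17 in enterocytes and -5.84 to 1.62 for the difference, and Clca4b from -0.21 to 0.28 for the difference. The upper minus lower range of enterocytes, by villus tip genes alone, was -0.31 for Cftr, 0.78 for Slc26a3, 1.01 for Slc26a6 and 0.47 for Slc9a2, and by the score chosen after seeing the data -0.53, 3.21, 4.17 and 1.71, all opposite in sign to the score planned first. The cause of these changes was not tested. Alternatives for the Paneth class gave no member values beyond the fit with no filter, which called 0.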
